A study of Mus musculus with 9 samples.

Results

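The glycolytic enzymes are the products of 10 genes chosen by name, from Hk1 at the entry of glucose into the pathway to Ldha at the exit to lactate. The deposited expression table holds 9277 genes, and 9 of the 10 were among them. Pgk1, the phosphoglycerate kinase gene, was not in the table and was not analysed here. The table covers endothelial cells taken from mouse lung. The groups are wild type mice, labelled Tie1-WT (n = 4 libraries), and mice carrying a form of Tie1 that proteases cannot cut, labelled Tie1-CR (n = 5 libraries). Tie1 is an endothelial receptor related to Tek, and its outer part is shed during inflammation. The library names of both groups carry PBS, and no inflammatory stimulus is analysed here. No label states age, sex, strain or how the cells were isolated. Whether different libraries stem from different mice is not labelled either, and the p-values therefore describe variation among libraries, which may be technical.

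Glycolysis splits glucose into pyruvate in the cytosol and yields ATP without oxygen, and lactate dehydrogenase then turns pyruvate into lactate. Endothelial cells are known to draw most of their ATP from this route even where oxygen is plentiful. Its flux is set mainly by hexokinase, phosphofructokinase (PFK) and pyruvate kinase, and the product of PFKFB3 activates PFK during vessel sprouting. Many of the genes are classical targets of the hypoxia-inducible factors (HIF).

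Of the 9 measured enzymes, 1 rose and 1 fell in Tie1-CR. Pfkl, the liver-type subunit of PFK, rose 1.24-fold, and Gapdh, glyceraldehyde-3-phosphate dehydrogenase, fell 1.43-fold. The other 7 did not pass the threshold, with differences from -0.07 log2 for Pfkp to 0.20 log2 for Ldha. Calls are limma Benjamini-Hochberg adjusted p-values below 0.05 over all 9277 genes, on log2(CPM + 1), where CPM is a gene's reads scaled to a common library total. In all genes, 1.28% were called higher and 2.77% lower, 4.05% in either direction. The median difference of the 9 enzymes was 0.06 log2, beside -0.03 over all genes, and 6 of the 9 lay above 0. Without adjustment, 4 of the 9 had a limma p below 0.05, beside 22.3% of all genes. The summed CPM of the 9 was 1173 ± 41.7 (SD, n = 4) in Tie1-WT and 1259 ± 42.7 (SD, n = 5) in Tie1-CR, and the libraries of the groups overlapped, from 1134 to 1223 and from 1203 to 1312.

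**Figure D1:**
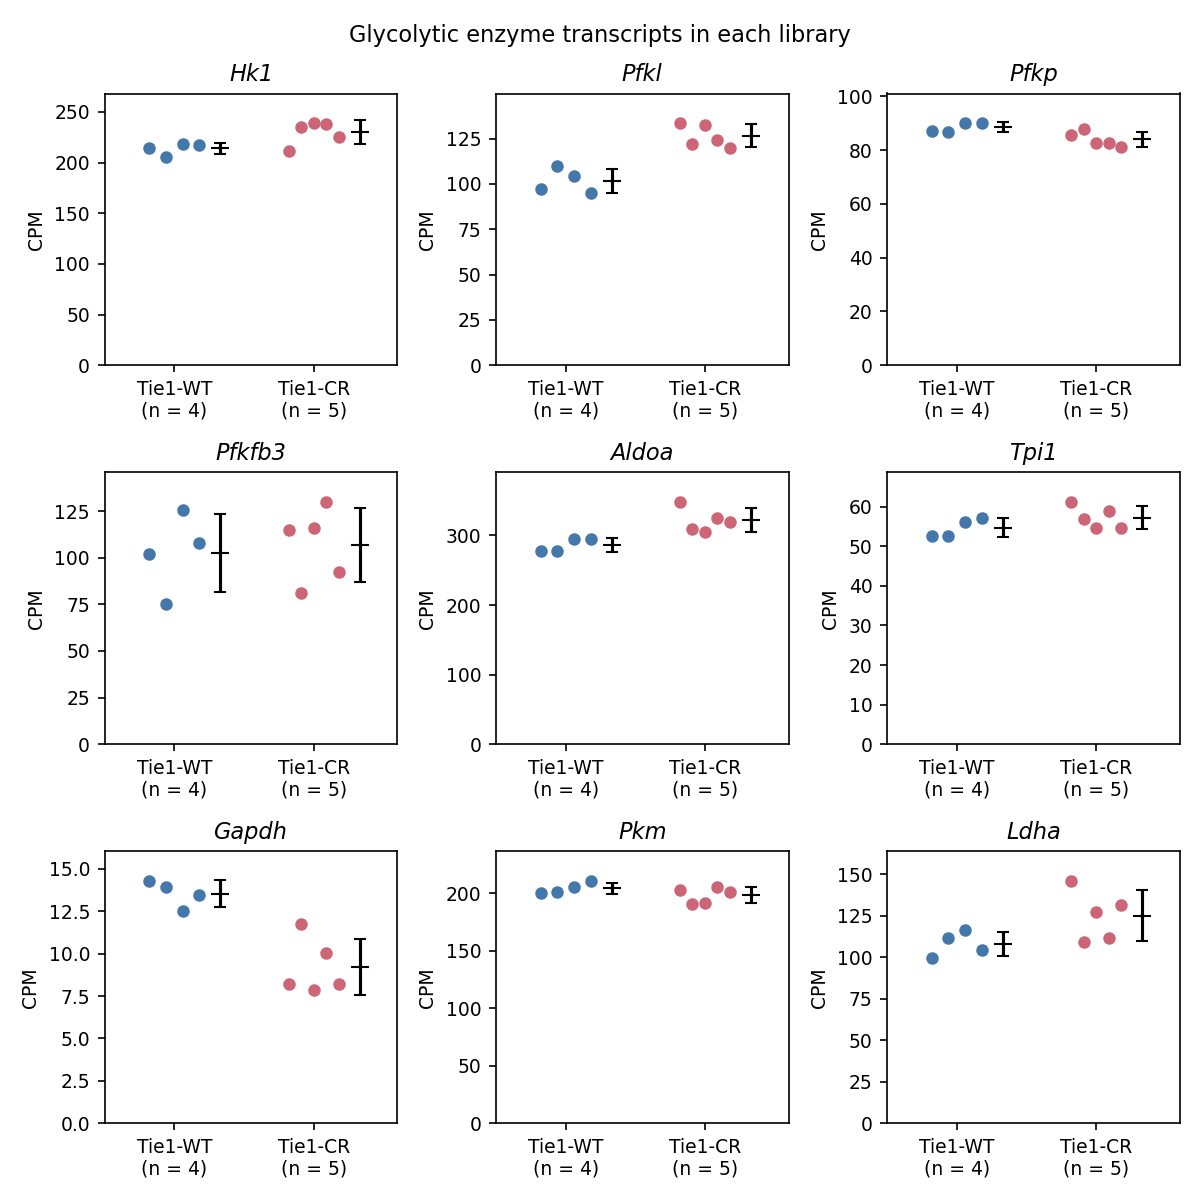
Each panel plots the CPM of an enzyme gene (vertical axis, from 0) in the 4 Tie1-WT libraries (blue) and the 5 Tie1-CR libraries (red), with the mean and SD in black. Tie1-CR lies wholly above Tie1-WT for Pfkl and Aldoa and wholly below it for Gapdh, and the libraries of the groups overlap in the other 6 panels. In all genes, 10.5% had no overlap in either direction.

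The libraries hold 38208696 to 54408116 counted reads, from the step between neighbouring values, of which 98.3% to 98.6% fall on genes of the table. All 15 listed endothelial markers were present, summing to 26088 to 27720 CPM in Tie1-WT and 28073 to 30416 CPM in Tie1-CR. The marker that passed, the transcription factor gene Erg, fell from 50.3 ± 3.61 to 37.5 ± 1.77 CPM (-0.41 log2, limma adjusted p = 0.00516), and 13 of the 15 lay above 0. Tie1 itself measured 2136 ± 42.9 CPM (SD, n = 4) and 2433 ± 143 CPM (SD, n = 5); transcript level does not check the cleavage-resistant allele. Of 17 lung epithelial markers 11 were in the table, without Epcam and Nkx2-1, and they summed to 460 to 875 CPM in Tie1-WT and 680 to 1031 CPM in Tie1-CR. Of the 11, 9 lay above 0, with a median of 0.87 log2, and 7 had an unadjusted limma p below 0.05. Cdh1, Sftpb, Scgb1a1, Cyp2f2 and Foxj1 reached 10.01 CPM, the lowest maximum of any gene in the table, only in Tie1-CR libraries. Genes that enter the table only through Tie1-CR tilt the count, the median and the Cyp2f2 call towards a rise. Sftpd, a surfactant protein gene, and Cyp2f2, a club cell gene, rose by 1.14 log2 each (limma adjusted p = 0.044 and 0.0428), from 5.88 to 13.3 CPM and from 4.95 to 11.6 CPM. Of 19 immune markers 1 was in the table, Lyz2, and Ptprc was not. Lyz2 ranged from 19.7 to 68.0 CPM in Tie1-WT and from 55.1 to 113 CPM in Tie1-CR. Of 13 mesenchymal markers 6 were in the table, summing to 45.8 to 116 CPM and 34.3 to 124 CPM. The part of these markers in the results was not tested, apart from a fit with the epithelial markers given beside Pfkl and Gapdh. In bulk RNA, fewer cells of a type and less RNA per cell cannot be told apart.

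Hk1, the hexokinase that traps glucose as glucose 6-phosphate, was the hexokinase gene in the table, and Hk2, Hk3 and Hkdc1 were not analysed here. It measured 214, 206, 218 and 218 CPM in Tie1-WT and 211, 235, 239, 238 and 226 CPM in Tie1-CR. Tie1-CR replicate 1 lay among the Tie1-WT libraries, and the other 4 lay above them. The difference was 0.10 log2 (95% interval -0.01 to 0.21) and did not pass (limma adjusted p = 0.247).

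Pfkl (chr10:77986947-78010083, minus strand, GRCm38) encodes a subunit of the enzyme that commits sugar to glycolysis by adding a phosphate to fructose 6-phosphate. It measured 96.98, 109.9, 104 and 95.1 CPM in Tie1-WT. In Tie1-CR it measured 134, 122, 132, 124 and 119.8 CPM. Every Tie1-CR library was above every Tie1-WT library, as was true of 3.74% of all genes. The rise was 0.31 log2 (SE 0.06, 95% interval 0.19 to 0.44), with a limma adjusted p of 0.014. Without Tie1-WT replicate 1 the difference was 0.29 log2 and the call ended (adjusted p = 0.066). With the mean of the epithelial markers as a covariate it was 0.33 log2 (SE 0.08) and the call also ended (adjusted p = 0.122), in a fit where 16 genes were called in all.

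Pfkp, the platelet-type PFK subunit, lay slightly lower in Tie1-CR without passing. It measured 87.1, 86.6, 90.3 and 90.0 CPM in Tie1-WT and 85.5, 87.9, 82.7, 82.7 and 81.3 CPM in Tie1-CR. Tie1-CR replicate 2 fell within the Tie1-WT range and the other 4 below it. The difference was -0.07 log2 (95% interval -0.17 to 0.02, limma adjusted p = 0.318). Its spread within genotypes, 0.04 log2, was among the smallest in the table, at the 1.75 percentile of all genes. The muscle-type gene Pfkm, from the list of other glycolysis genes, measured 33.1 ± 2.93 CPM (SD, n = 4) and 34.2 ± 2.90 CPM (SD, n = 5), a difference of 0.05 log2 (limma adjusted p = 0.745).

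The PFK subunits assemble into mixed tetramers, so their proportions were compared within each library, on CPM per kilobase of the longest protein-coding transcript. The Pfkl share was 44.6%, 48.1%, 44.6% and 44.0% in Tie1-WT and 53.1%, 49.98%, 53.4%, 50.1% and 49.96% in Tie1-CR. Tie1-WT replicate 2 stood nearest to the Tie1-CR libraries, and the groups did not overlap. The mean went from 45.3% ± 1.85 (SD, n = 4) to 51.3% ± 1.79 (SD, n = 5), a difference of 6.00 percentage points. Each other share was the smaller for it: Pfkp went from 35.6% ± 1.505 to 30.7% ± 0.978, again without overlap, and Pfkm from 19.1% ± 1.22 to 18.0% ± 1.68 with overlap. Two-sided exact permutation gave p = 0.00794 for the Pfkl and Pfkp shares, the smallest possible with these group sizes, and p = 0.31 for Pfkm (0.0119, 0.0119 and 0.31 adjusted over the 3 shares). The shares add to a fixed total and were computed after the rise of Pfkl had been seen, so they are not independent evidence of it. They do not change with the scaling of a library. With each library left out in turn the difference in the Pfkl share ran from 5.47 to 6.92 points. Exact permutation then gave p = 0.0179 or 0.0286, the smallest that 3 against 5 or 4 against 4 libraries allow, which says nothing about stability.

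**Figure D2:**
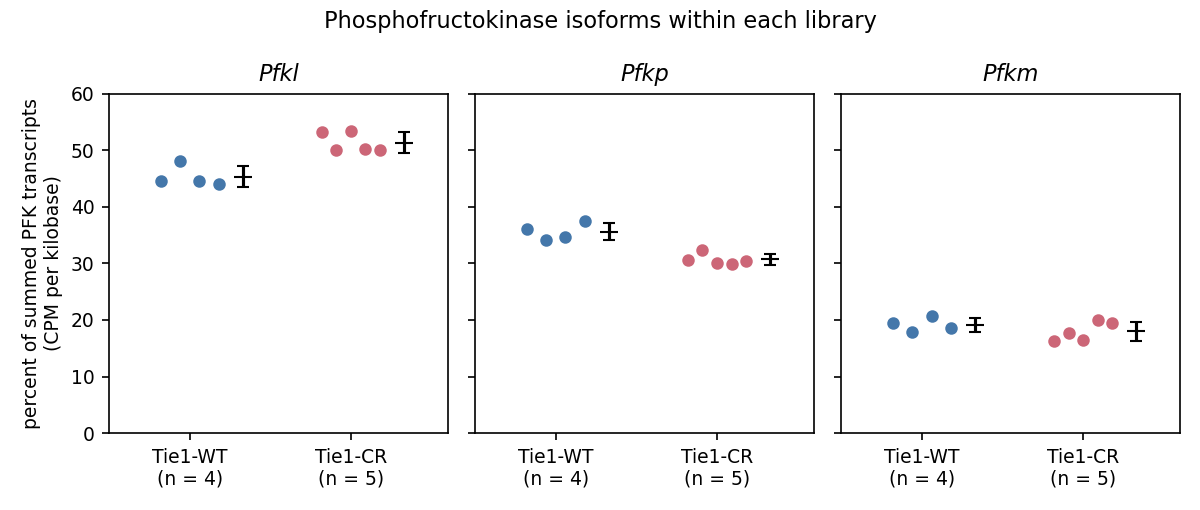
The share of each PFK subunit in the summed PFK transcripts of a library (percent, CPM per kilobase, axis from 0) is plotted for the 4 Tie1-WT and 5 Tie1-CR libraries, with the mean and SD in black. The Pfkl share is higher in every Tie1-CR library (50.0% to 53.4%) than in any Tie1-WT library (44.0% to 48.1%), and the Pfkp share lower.

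Pfkfb3 makes fructose 2,6-bisphosphate, the strongest activator of PFK. It varied most among the enzymes, with a spread within genotypes of 0.29 log2, at the 96.1 percentile of all genes. It measured 102.0, 75.2, 125 and 108 CPM in Tie1-WT and 115, 81.0, 116, 130 and 92.6 CPM in Tie1-CR. The lowest libraries, replicate 2 of each genotype, lay at similar levels, and the groups overlapped over nearly their whole ranges. The difference was 0.06 log2, with a 95% interval from -0.28 to 0.40 that covers the size of the Pfkl rise (limma adjusted p = 0.850). Its sign turned without Tie1-WT replicate 2 (-0.078 log2) or Tie1-CR replicate 4 (-0.014 log2), and no direction is given for it. Pfkfb2, another isoform, measured 10.5 ± 0.724 and 10.5 ± 1.16 CPM.

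Aldoa, the aldolase that cleaves fructose 1,6-bisphosphate, had groups that did not overlap but missed the threshold. It measured 277.0, 277, 295 and 295 CPM in Tie1-WT. In Tie1-CR it measured 349, 309, 305, 326 and 319.98 CPM. The highest library was Tie1-CR replicate 1, and each Tie1-CR library was above the highest Tie1-WT library, as was true of 3.74% of all genes. The difference was 0.17 log2 (95% interval 0.05 to 0.28, limma adjusted p = 0.0872), and with library weights it passed (0.17 log2, adjusted p = 0.0469). That fit called 661 genes in all, and Aldoa did not pass in the other 17 alternative fits. GENCODE gives the symbol Aldoa to 2 neighbouring genes on chromosome 7, and the table does not say which was counted.

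Tpi1, triosephosphate isomerase, interconverts the products of aldolase. It measured 52.6, 52.7, 56.2 and 57.2 CPM in Tie1-WT and 61.3, 56.8, 54.5, 58.9 and 54.6 CPM in Tie1-CR. The groups overlapped, and the difference was 0.06 log2 (95% interval -0.05 to 0.18, limma adjusted p = 0.482).

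Gapdh (chr6:125161715-125166467, minus strand, GRCm38) oxidises glyceraldehyde 3-phosphate and is the most widely used reference transcript of expression studies. It measured 14.3, 14.0, 12.5 and 13.4 CPM in Tie1-WT. In Tie1-CR it measured 8.23, 11.8, 7.88, 10.1 and 8.24 CPM. Every Tie1-CR library was below every Tie1-WT library, as was true of 6.74% of all genes, and Tie1-CR replicate 2 came nearest. The fall was -0.52 log2 (SE 0.11, 95% interval -0.77 to -0.28), with a limma adjusted p of 0.029. These values rest on 418 to 662 reads per library, so counting alone adds an error of 3.89% to 4.89%, taking reads as independent. The call held without Tie1-CR replicate 2 or replicate 4 (adjusted p = 0.0076 and 0.048) and ended without any other library (0.0507 to 0.106), and with the epithelial covariate (-0.45 log2, adjusted p = 0.247).

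The Gapdh level needs care, since most of its transcript sequence recurs in transcripts of other genes. Of the 50-base stretches of its longest protein-coding transcript in GENCODE, 82.5% also occur in transcripts of other genes, spread over 222 gene symbols, of which 1 is in the table. The following stretch of 50 bases is shown because 84 other genes carry it, and no other coding stretch within an exon is carried by more. It lies in exon 4 of transcript ENSMUST00000118875.7, at chr6:125162898-125162947 on the minus strand of GRCm38, and is printed as transcribed.
Gapdh: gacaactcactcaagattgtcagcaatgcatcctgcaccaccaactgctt
No source used here tells how reads matching several genes were counted, and the part of these reads in the level or the fall of Gapdh was not tested. Gapdh stood last of the 9 enzymes per kilobase, at 9.54 ± 0.557 CPM per kilobase (SD, n = 4) in Tie1-WT. Among the others the shared portion was 0.0543% for Pfkl, 0.631% for Pfkfb3, 2.55% for Hk1, 7.51% for Tpi1, 13.5% for Aldoa, 16.6% for Ldha, 17.1% for Pfkp and 34.4% for Pkm. The way such reads were counted bears on the Pkm level too. Pgk1, which was not in the table, shares 68.0%. Among the genes tested, 190 share at least 50%, a level chosen after the value of Gapdh was seen. Of these 0 (0.0%) were called higher and 16 (8.42%) lower, beside 1.28% and 2.77% of all genes, with a median of -0.05 log2 against -0.03 over all genes. Gapdh itself is among the 16.

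**Figure D3:**
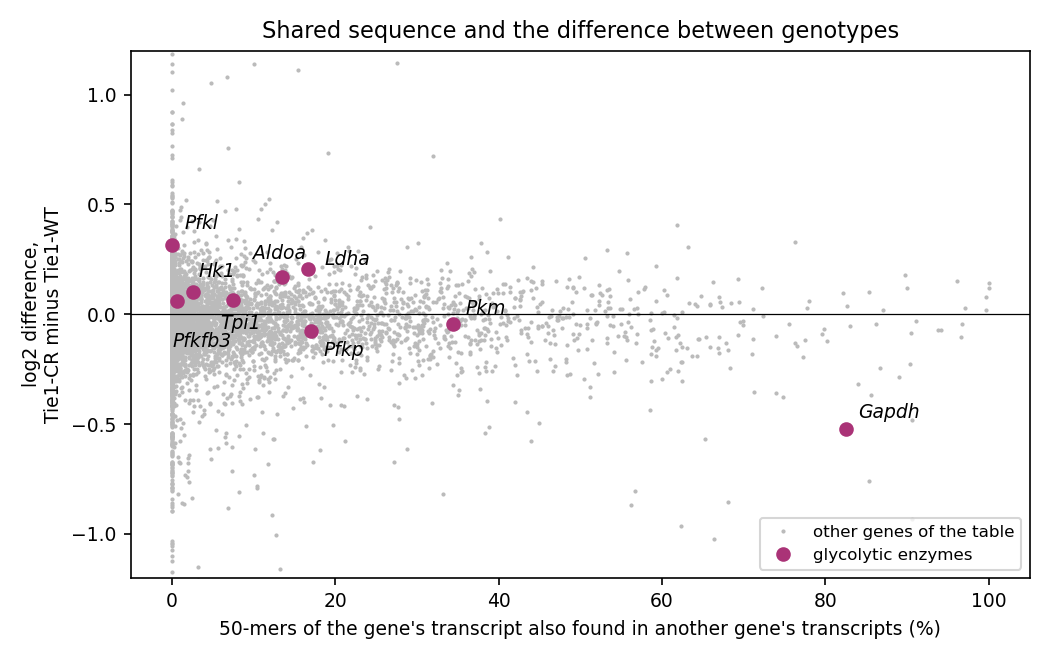
For 9048 genes of the table with a GENCODE transcript, the share of the transcript's 50-base stretches that also occur in another gene (horizontal axis, percent) is plotted against the log2 difference between Tie1-CR and Tie1-WT (vertical axis; 15 genes lie beyond it). Gapdh, at 82.5% and -0.52 log2, lies apart from the other 8 enzymes (larger points), which lie at 34.4% or less.

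Pkm, pyruvate kinase, makes pyruvate and ATP in the last step of glycolysis. It measured 201, 201, 205 and 211 CPM in Tie1-WT and 203, 190.3, 192, 205 and 201 CPM in Tie1-CR. The groups overlapped, and the interval of the difference was narrow (-0.05 log2, 95% interval -0.14 to 0.05, limma adjusted p = 0.567). The spread within genotypes was 0.04 log2, at the 2.88 percentile of all genes.

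Ldha encodes the lactate dehydrogenase subunit that favours lactate production, and Ldhb was not analysed here. It measured 99.4, 111, 116 and 104 CPM in Tie1-WT and 146, 108.8, 127, 111 and 131 CPM in Tie1-CR. Tie1-CR replicates 1, 3 and 5 lay above every Tie1-WT library, and replicates 2 and 4 among them. The difference was 0.20 log2 (95% interval 0.02 to 0.39) and did not pass over all genes (limma adjusted p = 0.185).

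**Figure D4:**
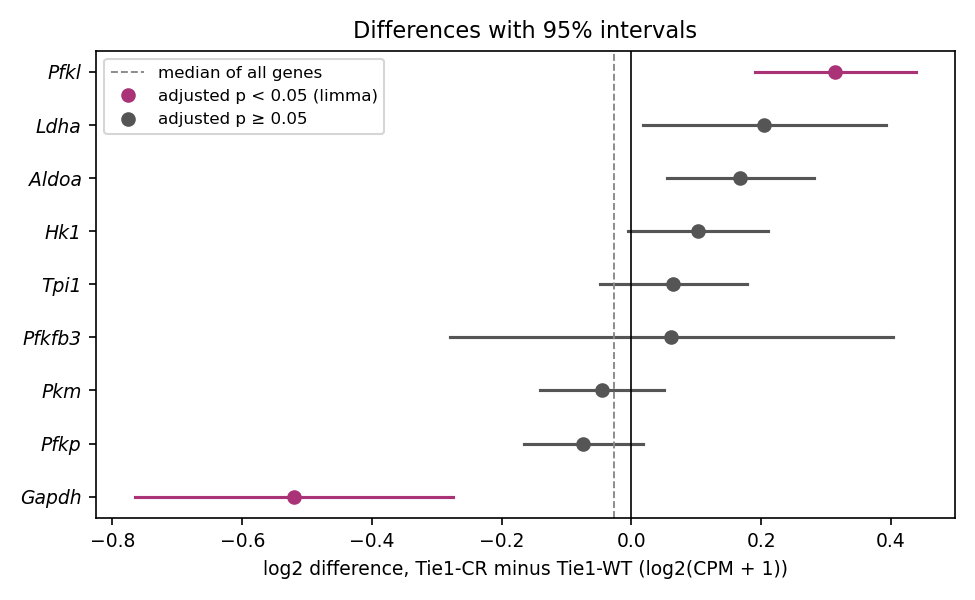
The log2 difference between Tie1-CR and Tie1-WT (horizontal axis) is plotted for the 9 enzymes with its 95% interval from the limma fit. Pfkl (0.31) and Gapdh (-0.52) passed the adjusted threshold, and the dashed line marks the median of all genes (-0.03).

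Per kilobase of transcript, Aldoa was the most abundant of the 9 in both genotypes, at 185 ± 6.66 CPM per kilobase (SD, n = 4) in Tie1-WT and 208 ± 11.03 (SD, n = 5) in Tie1-CR. In Tie1-WT it was followed by Pkm (84.1), Ldha (59.4), Hk1 (50.0), Tpi1 (34.0), Pfkl (27.2), Pfkfb3 (21.4), Pfkp (21.4) and Gapdh (9.54). Neighbours in this order did not overlap between libraries, except Pfkl with Pfkfb3 and Pfkfb3 with Pfkp. The order of the means was the same in Tie1-CR, where Pfkl (33.9) overlapped Tpi1 (35.6) and no longer overlapped Pfkfb3 (22.3), and where Ldha (68.9) overlapped Pkm (81.5). Within Tie1-CR, replicate 1 held the highest value for 4 of the 9 enzymes, Pfkl, Aldoa, Tpi1 and Ldha, and the lowest for Hk1.

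The regions upstream of the genes are shown for the letters ACGTG, the core of the element that HIF binds, because HIF is the textbook regulator of these genes. RefSeq (GRCm38.p6) gives 16 start sites for the 10 genes, and the 250 bases before each were read on both strands. ACGTG was present in 7 of the 16, belonging to Pfkfb3, Aldoa, Pgk1, Pkm and Ldha, and in 16.6% of all 32851 windows. The Aldoa windows with a match overlap, and the same match is counted in both. Ldha held the most matches, 5 in the window at chr7:46845554-46845803 on the plus strand, where each of 2 CACGTG hexamers is counted on both strands. Pfkl, the gene that rose, had no ACGTG at chr10:78009808-78010057 on the minus strand. It had 1 GCGTG, a form of the element found in 28.2% of all windows. Both windows are printed with ACGTG, or CACGT where it reads on the other strand, in capitals.
Ldha: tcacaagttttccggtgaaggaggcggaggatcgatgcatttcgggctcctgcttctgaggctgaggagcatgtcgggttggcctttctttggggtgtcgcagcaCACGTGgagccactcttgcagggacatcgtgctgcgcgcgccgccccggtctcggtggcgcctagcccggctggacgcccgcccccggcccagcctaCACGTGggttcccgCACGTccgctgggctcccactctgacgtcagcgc
Pfkl: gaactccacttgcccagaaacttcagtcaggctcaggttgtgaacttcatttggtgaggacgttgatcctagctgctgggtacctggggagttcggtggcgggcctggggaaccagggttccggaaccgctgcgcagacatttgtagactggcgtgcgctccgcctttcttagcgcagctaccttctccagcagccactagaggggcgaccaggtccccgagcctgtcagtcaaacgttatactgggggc
These matches describe letters only, and binding was not measured here.

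The HIF genes and other regulators of the pathway did not pass the threshold. Epas1, which encodes HIF2alpha, was high at 3723 ± 344 CPM (SD, n = 4) and 3580 ± 98.8 CPM (SD, n = 5). Hif1a measured 85.0 ± 5.28 and 84.8 ± 3.12 CPM, a difference of -0.0022 log2 (limma adjusted p = 0.986). Klf2, a flow-induced factor known to restrain endothelial Pfkfb3, varied widely at 3518 ± 1595 and 2445 ± 983 CPM (limma adjusted p = 0.433). Of the 15 regulators measured, 0 passed and 2 had an unadjusted limma p below 0.05 (22.3% in all genes), with a median of -0.05 log2. Notch1, which had groups without overlap, measured 697 ± 33.5 and 816 ± 54.1 CPM (0.23 log2, limma adjusted p = 0.0636).

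Of the 16 other HIF targets measured, 0 passed and 5 had an unadjusted limma p below 0.05 (22.3% in all genes), with 9 above 0, 7 below and a median of 0.01 log2. Vegfa, the vascular growth factor, measured 944 ± 43.4 CPM (SD, n = 4) and 1060 ± 56.7 CPM (SD, n = 5), without overlap (0.17 log2, limma adjusted p = 0.124). Hilpda, a lipid droplet protein gene, measured 473 ± 21.2 and 557 ± 108 CPM, and the histone demethylase gene Kdm3a 129 ± 7.00 and 125 ± 10.5 CPM. These targets did not differ in a common direction.

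Of the 12 further glycolysis genes measured, 0 passed and 2 had an unadjusted limma p below 0.05 (22.3% in all genes), with a median of -0.05 log2. Gpi1, which makes fructose 6-phosphate, measured 106 ± 8.64 and 103 ± 5.33 CPM (limma adjusted p = 0.739). Pgm1, which links glycogen to glycolysis, measured 59.9 ± 1.40 and 57.3 ± 1.91 CPM, and Adpgk, a sugar kinase gene, 48.2 ± 3.72 and 48.6 ± 1.21 CPM.

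Transporters of glucose, lactate and pyruvate numbered 7 in the table, with 6 above 0 and a median of 0.10 log2, and 0 passed (1 at an unadjusted limma p below 0.05, against 22.3% of all genes). Bsg, the chaperone of the lactate transporters, measured 314 ± 12.2 CPM (SD, n = 4) and 345 ± 19.5 CPM (SD, n = 5), without overlap (0.14 log2, limma adjusted p = 0.160). The glucose transporter genes Slc2a8 and Slc2a10 measured 59.8 ± 2.01 and 63.1 ± 6.44 CPM, and 33.9 ± 4.17 and 36.3 ± 2.44 CPM.

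Pyruvate dehydrogenase, which uses pyruvate within the mitochondrion, and its regulators numbered 9 in the table. Of these 0 passed and 3 had an unadjusted limma p below 0.05 (22.3% in all genes), with a median of -0.08 log2. Pdhx and Pdhb, named after their values were seen, lay below Tie1-WT in every Tie1-CR library, at 28.2 ± 1.06 and 25.3 ± 0.834 CPM (-0.15 log2, limma adjusted p = 0.109) and at 40.6 ± 1.64 and 37.1 ± 0.872 CPM (-0.12 log2, limma adjusted p = 0.134). Pdha1 measured 59.8 ± 1.77 and 59.8 ± 1.17 CPM, Dlat 55.0 ± 2.21 and 50.9 ± 1.66 CPM, and the kinase gene Pdk2 57.4 ± 3.63 and 60.02 ± 7.33 CPM.

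The pentose phosphate and TCA cycle lists held 9 and 18 genes of the table, with 0 calls in each (4 and 1 at an unadjusted limma p below 0.05, against 22.3% of all genes) and medians of -0.01 and -0.03 log2. Tkt, transketolase, measured 116 ± 5.61 and 119 ± 4.82 CPM, and Taldo1, transaldolase, 98.1 ± 2.46 and 99.4 ± 7.81 CPM. Pgls, the lactonase of the oxidative branch, measured 58.9 ± 4.08 and 66.6 ± 6.32 CPM (limma adjusted p = 0.206). The cycle genes Ogdh and Sdha differed by -0.06 and -0.05 log2, and neither passed. All 18 cycle genes overlapped between the groups.

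**Figure D5:**
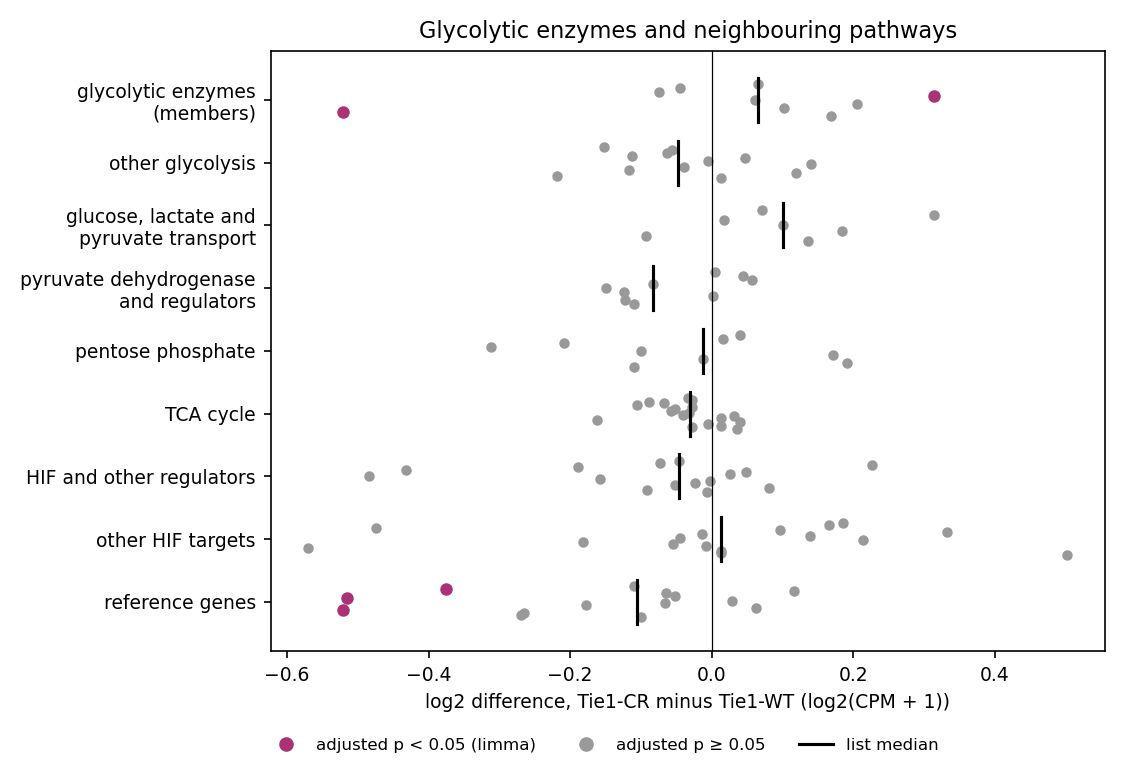
Each point is the log2 difference between Tie1-CR and Tie1-WT (horizontal axis) of a gene, grouped by the 9 enzymes and 8 neighbouring lists, with list medians as black bars and genes past the adjusted threshold in purple. List medians lie between -0.10 and 0.10 log2, and outside the enzymes coloured points appear only among the reference genes, where Gapdh is repeated beside Ppia.

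Gapdh belongs to a group of transcripts often taken as references, of which 14 were in the table. In that list 3 fell and 0 rose, and the median was -0.10 log2, beside a background of 2.77% of all genes called lower. Among the 3 were Gapdh and the cyclophilin gene Ppia, which went from 55.5 ± 2.69 to 38.7 ± 4.52 CPM (limma adjusted p = 0.0075). Actb, the most abundant of the list, measured 3215 ± 122 and 2999 ± 144 CPM (-0.10 log2, limma adjusted p = 0.374). B2m measured 2031 ± 244 and 1700 ± 320 CPM (limma adjusted p = 0.260).

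By root-mean-square distance of centred log2 profiles over the 9 libraries, the genes closest to Pfkl were Tmem184b (0.07 log2), Cant1 (0.07) and Mfhas1 (0.07). The profiles keep the difference between genotypes, so genes closest to a called member resemble it in that difference by selection. Their calls are therefore not separate support for Pfkl or Gapdh. Tmem184b and Cant1 passed, with differences of 0.21 and 0.31 log2, and Mfhas1 did not (0.19 log2, limma adjusted p = 0.0864). The genes closest to Gapdh were Eif4a1 (0.08 log2), Ppia (0.08) and Tpt1 (0.10). Eif4a1, a translation initiation factor gene, went from 130 ± 8.48 to 88.0 ± 14.5 CPM (-0.57 log2, limma adjusted p = 0.0135), and Tpt1 differed by -0.40 log2 without passing (limma adjusted p = 0.0682). All 3 share much of their transcript with other genes, 65.3% for Eif4a1, 38.8% for Ppia and 42.0% for Tpt1, against 0%, 0% and 1.35% for the 3 genes closest to Pfkl.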

How the data were processed

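RNA of 9 libraries was sequenced. Per the labels' protocols, RNA came from a PicoPure kit and libraries from the SMARTer Ultra Low kit. STAR 2.7 and the builds GRCm38.p6 and mm10 appear in the submitters' processing notes. No source used here names a counting tool, an annotation or the gene filter. The authors deposited values named as TPM that behave as CPM: 100% are whole multiples of 1 step per library (tolerance 0.01 reads). Each gene of the table reaches at least 10.01 CPM in some library.

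Differences are Tie1-CR minus Tie1-WT on log2(CPM + 1), which understates changes of low genes, from limma 3.58.1 (R 4.3.3, trended empirical Bayes, two-sided) over all 9277 genes, calling Benjamini-Hochberg adjusted p-values under 0.05. The design had been written for TPM. The members and lists were chosen with earlier results of these data known. Named genes are all members, list genes past the threshold, the 3 most abundant of each list (some named items are not reported here), and the 3 closest profiles of each called member. Genes without overlap between the groups (10.5% of all genes) and Hif1a, Pfkm and Pfkfb2 were named after their values were seen. Exact permutation enumerated 126 assignments. Shared sequence was counted as 50-mers of GENCODE M21 transcripts on either strand. In simulated data for this comparison (9277 genes), 86% of 100 genes changed by 0.5 log2 and 99% of 100 changed by 1 log2 were recovered, with 3 false calls. Of 10 simulated runs without changes, 2 gave a call. Genes were drawn independently, without shifts shared by the genes of a library. No change under 0.5 log2 was simulated, and all enzymes but Gapdh differed by less. Figures used matplotlib 3.10.9 and Python 3.11.15.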

Additional observations from a re-analysis of the deposited data

Results flagged for a closer look

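The share of Pfkl among PFK transcripts in Tie1-WT replicate 2, 48.068% against 44.0% to 44.6% in the other Tie1-WT libraries, lay far from the rest of its group by Dixon's criterion for 4 samples. It is on the side of the Tie1-CR libraries. Of 22 groups of values examined 1 was marked, and about 1 in 20 would be by chance. Without that library the difference in the share was 6.92 points.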

How the results depend on the processing

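The direction of 8 of the 9 enzymes was the same in each of 18 alternative fits, 17 of which tested Gapdh. That of Pfkfb3 turned in 2 (-0.078 and -0.014 log2 without Tie1-WT replicate 2 and Tie1-CR replicate 4). Pfkl was called in 16 of 18 and Gapdh in 8 of the 17 that tested it. Requiring a mean of at least 20 CPM removed Gapdh, leaving 0 falls among the enzymes (3 of 8 at an unadjusted limma p below 0.05). Library weights called 661 genes, 2 rises among the enzymes and 4 pathway genes outside them, against 376, 1 and 2, and robust empirical Bayes called 4 such pathway genes. The epithelial covariate called 16 genes, with 0 rises, 0 falls and 0 pathway genes (3 of 9 enzymes at an unadjusted limma p below 0.05), and the causes of these shifts were not tested. TMM and quantile scaling moved the lower calls from 68.4% to 51.1% and 50.9% of all calls. With each library left out in turn, 60 to 355 genes, 0 to 1 rises, 0 to 1 falls and 1 to 3 pathway genes were called, and the Pfkfb3 difference ran from -0.078 to 0.165 log2. The genes called numbered 60 without Tie1-WT replicate 1, 135 without replicate 2, 154 without replicate 3 and 183 without Tie1-CR replicate 4.

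With a replicate block, 182 genes were called, with 1 rise (Pfkl, adjusted p = 0.0496), 0 falls (Gapdh -0.49 log2, adjusted p = 0.0777; 3 of 9 enzymes at an unadjusted limma p below 0.05) and 1 pathway gene. The labels do not say whether the numbers pair samples. Same-numbered libraries' deviations correlated at -0.144, 0.0041, -0.0597 and 0.19, and 1 of 4 Tie1-WT libraries correlated best with its own number. So few values cannot decide whether the numbers mark a pairing. The planned count tests were not run, and the whole multiples served only to read off depth. Genes that never reach 10.01 CPM cannot be assessed, and the counting error of Gapdh, up to 4.89%, is the largest depth limit among the enzymes.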

Other observations

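Other genes of the lists that, like Gapdh, share much of their transcript with other genes did not lie on one side of 0, and were named after their values were seen. Eef1a1, an elongation factor gene sharing 60.6% of its 50-base stretches, measured 160.2 ± 4.20 CPM (SD, n = 4) in Tie1-WT and 134 ± 13.2 CPM (SD, n = 5) in Tie1-CR, without overlap (limma adjusted p = 0.0512). Pgam5, at a shared portion of 64.4%, measured 10.6 ± 0.649 and 9.76 ± 0.725 CPM, also below 0 (-0.11 log2, limma adjusted p = 0.432). Eno1, the enolase gene, measured 39.7 ± 2.28 and 43.2 ± 1.98 CPM, on the other side of 0 (0.12 log2, limma adjusted p = 0.219), at a shared portion of 72.2%. The calls among all 190 genes sharing at least 50% are given with Gapdh above.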
